A study of Homo sapiens with 2 samples.

Results

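SNU449 is an established human liver cancer cell line, and the genes described here are 10 that normal liver transcribes for secretion into blood: the fibrinogen chain genes FGA, FGB and FGG, the albumin gene ALB, the antitrypsin gene SERPINA1, the complement genes C3, CFB, C1R and C1S, and the apolipoprotein E gene APOE. They were chosen by name and are 10 of the 19316 genes listed in at least 1 of the 2 libraries. The groups were SNU449 cells transduced with lentivirus carrying an FZD2 short hairpin RNA (shRNA) and SNU449 cells transduced with lentivirus carrying a control shRNA, both sequenced at day 7 from poly(A)-selected RNA, with 1 library each. FZD2 encodes a cell-surface receptor of the Wnt pathway, and its own transcript was at 15.76 FPKM in FZD2 shRNA cells and 59.45 FPKM in control shRNA cells, from reads partly shared with other genes. FPKM values are fragment numbers scaled to gene length and library size, so levels of different genes can be compared on this scale. With 1 library per group there is no replicate error and no test of the conditions, and every difference below is between these 2 libraries. The sources do not say how many hairpins were used or whether the line was cloned.

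Hepatocytes secrete most of the proteins of blood plasma. Fibrinogen is assembled from alpha, beta and gamma chains before secretion and is cleaved by thrombin into the fibrin of clots. C1R and C1S are the proteases of the first component of the classical complement pathway, factor B (CFB) supplies the protease of the alternative pathway, and both pathways cleave C3. Albumin carries fatty acids and hormones, alpha-1-antitrypsin blocks neutrophil elastase, and apolipoprotein E is a ligand for lipoprotein receptors. Transcription of these genes in liver depends on factors such as HNF4 and C/EBP proteins, and interleukin-6 (IL-6), acting through gp130 and STAT3, raises fibrinogen and several other members in inflammation. C3, CFB, C1R, C1S and APOE are also made by cells outside the hepatocyte lineage, macrophages and fibroblasts among them.

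The stretches around the transcription starts of the fibrinogen genes are shown with that of SERPINA1, since the fibrinogen genes were transcribed in this line while SERPINA1 was near absence. Each runs 5′ to 3′ on the gene's own strand, from 250 bases before a RefSeq start to 50 bases after it, on GRCh38.p14. Capitals mark the core of an IL-6 response element, which is CTGGGA and reads TCCCAG when it lies on the other strand. With an A added at its end this core becomes the longer CTGGGAA, which reads TTCCCAG on the other strand, so the short form lies inside the long one. FGA is at chr4:154590693-154590992 on the minus strand, FGB at chr4:154562730-154563029 on the plus strand, FGG at chr4:154612607-154612906 on the minus strand and SERPINA1 at chr14:94388553-94388852 on the minus strand.
FGA: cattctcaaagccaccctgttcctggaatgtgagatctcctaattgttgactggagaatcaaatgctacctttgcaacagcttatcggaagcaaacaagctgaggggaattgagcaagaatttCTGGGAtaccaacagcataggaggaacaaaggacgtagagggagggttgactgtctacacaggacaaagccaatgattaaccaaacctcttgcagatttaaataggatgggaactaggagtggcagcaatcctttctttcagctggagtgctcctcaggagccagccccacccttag
FGB: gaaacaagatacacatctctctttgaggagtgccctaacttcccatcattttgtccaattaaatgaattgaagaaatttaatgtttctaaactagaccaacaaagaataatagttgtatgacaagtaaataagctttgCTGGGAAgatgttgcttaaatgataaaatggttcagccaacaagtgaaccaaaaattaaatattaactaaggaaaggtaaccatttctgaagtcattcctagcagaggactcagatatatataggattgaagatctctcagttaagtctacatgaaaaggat
FGG: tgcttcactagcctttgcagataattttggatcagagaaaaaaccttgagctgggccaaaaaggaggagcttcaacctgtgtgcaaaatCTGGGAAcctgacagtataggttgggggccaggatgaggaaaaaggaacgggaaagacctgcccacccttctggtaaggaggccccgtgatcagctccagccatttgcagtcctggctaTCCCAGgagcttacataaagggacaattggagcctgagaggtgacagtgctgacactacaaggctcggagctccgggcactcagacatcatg
SERPINA1: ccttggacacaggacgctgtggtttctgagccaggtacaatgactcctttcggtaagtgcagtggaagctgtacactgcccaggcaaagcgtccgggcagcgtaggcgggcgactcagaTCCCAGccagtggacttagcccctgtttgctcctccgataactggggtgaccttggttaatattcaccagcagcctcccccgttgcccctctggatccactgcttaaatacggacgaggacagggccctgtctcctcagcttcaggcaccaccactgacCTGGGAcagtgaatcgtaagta

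The longer letters CTGGGAA stood 112 bases before the start of FGB and 161 bases before that of FGG, and 10.8% of all 35116 windows in the RefSeq table held these letters, while FGA held only the shorter CTGGGA, 127 bases before its start, which 33.3% of all windows held. FGG also held TCCCAG 42 bases before its start, and SERPINA1 held TCCCAG 131 bases before its start and CTGGGA inside the transcript. Both forms also stood outside the fibrinogen genes. CTGGGAA lay 118 and 19 bases before 1 of the 3 APOE starts, and the short form was in all 3 APOE windows and in 1 of 2 C1R windows. The windows of ALB and CFB held neither form. The table gave 13 windows for 8 members. FGB had a further window that held the same motifs, and SERPINA1 had a further window, upstream, that held none of them. These matches are letters in a window and not measured binding.

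Fibrinogen was transcribed from all 3 genes. FGG, the gamma chain gene, was at 123.36 FPKM in FZD2 shRNA cells and 100.72 FPKM in control shRNA cells, ranking 564 and 664 among all genes. FGB, the beta chain gene, was at 105.3 FPKM in FZD2 shRNA cells and 91.67 FPKM in control shRNA cells. FGA, the alpha chain gene, was much lower, at 14.17 FPKM with the FZD2 shRNA and 12.43 FPKM with the control. The chains enter the finished protein in equal number, but FGG was 8.71 times FGA in FPKM in FZD2 shRNA cells and 8.1 times in control shRNA cells. FGB was 7.43 times FGA in FZD2 shRNA cells and 7.37 times in control shRNA cells, so in FPKM this order and spacing of the chains stood in both. In expected counts, which are not scaled to length, FGB was above FGG. The counts were 3075.89 against 1765 with the FZD2 shRNA and 2843.41 against 1480 with the control, and reads of FGB were partly shared. The 3 genes lie side by side on chromosome 4, and together held 71.8% of the members' summed FPKM with the FZD2 shRNA and 72.2% with the control.

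The other secreted proteins fell into an abundant pair and a low group. APOE was at 49.75 FPKM in FZD2 shRNA cells and 40.75 FPKM in control shRNA cells. C3, the central complement component, was at 36.94 FPKM with the FZD2 shRNA and 30.1 FPKM with the control. C1R was at 4.11 FPKM in FZD2 shRNA cells and 3.58 FPKM in control shRNA cells, and its partner protease C1S, the next gene on chromosome 12, was at 2.78 FPKM with the FZD2 shRNA and 2.89 FPKM with the control. The complement genes thus spanned a wide range: C3 was 36.9 times CFB in FPKM in FZD2 shRNA cells and 42.4 times in control shRNA cells.

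ALB and SERPINA1, abundant transcripts of normal liver, were at or near absence. ALB had 1 read in FZD2 shRNA cells (0.05 FPKM) and was unlisted in control shRNA cells, and no fold is given. SERPINA1 was at 0.6 FPKM in FZD2 shRNA cells and 0.73 FPKM in control shRNA cells, from 16 and 20 reads. A gene was called measured at 1 FPKM or more in at least 1 library, which 74.4% of the genes listed in either file met. Of the 10 members 8 were measured. CFB lay on that limit, at 1.0 FPKM with the FZD2 shRNA and 0.71 FPKM with the control, and SERPINA1 lay nearest below it. At a limit of 5 FPKM, 5 members remained (FGA, FGB, FGG, C3 and APOE), all above 10 FPKM in both libraries.

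**Figure D1:**
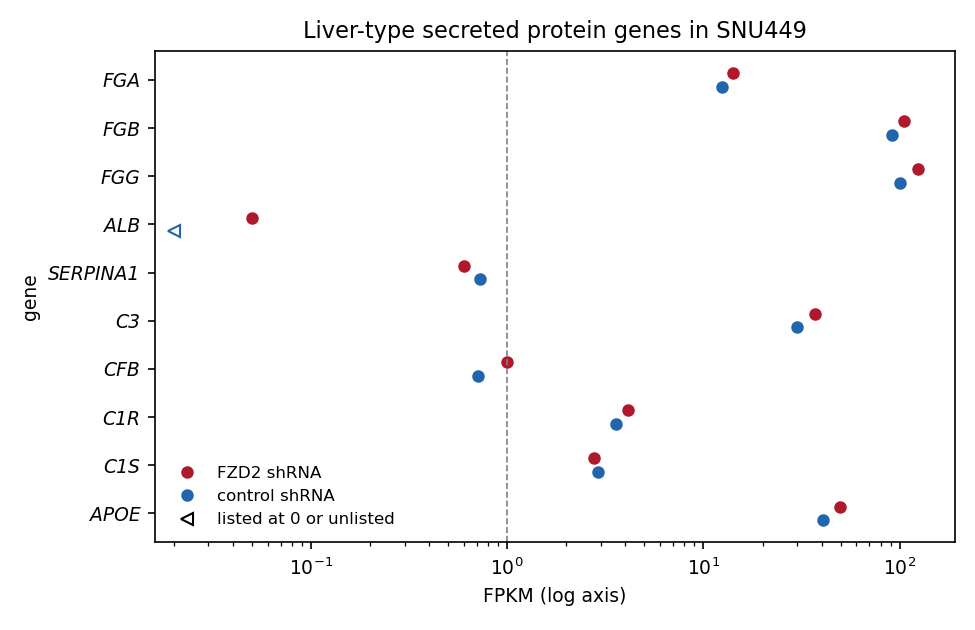
FPKM (log axis) of the 10 genes, 1 point per library, with the FZD2 shRNA library (red) above the control library (blue) in each row; the dashed line is 1 FPKM and an open triangle is an unlisted gene. FGB and FGG sit near 100 FPKM in both libraries, FGA, C3 and APOE between 12.43 and 49.75 FPKM, and ALB at 0.05 FPKM or unlisted.

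The labels call the cells liver cancer cells, while the growth protocol calls them prostate. Of 7 defining hepatocyte markers, ALB, TTR, APOA1, APOB, HNF4A, TF and SERPINC1, all 7 were under 1 FPKM in both libraries. TTR and APOB were unlisted in both, and TF, the transferrin gene, was at 0.43 FPKM with the FZD2 shRNA and 0.5 FPKM with the control. The fibrinogen genes were thus transcribed in cells at or near absence of these markers. Other cell types' markers stood at mixed levels. Of 10 cholangiocyte markers 6 were measured, summing to 1422.42 FPKM with the FZD2 shRNA and 1937.13 FPKM with the control, with KRT7 at 647.62 against 746.82 FPKM but EPCAM at 0.28 against 0.2 FPKM. Of 15 markers of fibroblasts and stellate cells 9 were measured, summing to 352.27 FPKM with the FZD2 shRNA and 444.02 FPKM with the control, while DCN was at 0.07 against 0.17 FPKM. Of 16 macrophage and leukocyte markers 4 were measured, summing to 94.23 FPKM with the FZD2 shRNA and 27.74 FPKM with the control, of which LYZ, a gene with shared reads, held 71.47 against 12.31 FPKM. CD163 and CSF1R, which define macrophages, were unlisted in both. Of 14 endothelial markers 3 were measured (5.07 against 2.32 FPKM in sum), and VWF was unlisted in both. Of 15 prostate markers 9 were measured (28.17 against 22.56 FPKM in sum), and KLK3 and KLK2 were unlisted in both. The part of these markers in the members' levels was not tested.

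Between the libraries the members stood close together. No measured member differed by 2-fold or by 1.5-fold: 0 of 8 were higher by 2-fold or more in FZD2 shRNA cells and 0 of 8 at least 2-fold lower, on FPKM + 1. Of all 14377 measured genes, 15.2% were at least 2-fold higher and 7.41% at least 2-fold lower, 22.6% in all, and at 1.5-fold the shares were 26.1% higher and 21.7% lower. Among the 8154 measured genes whose expected counts were whole in both libraries, taken as having no reads shared with other genes, the shares at 2-fold were 4.19% higher and 10.2% lower, 14.4% in all, and at 1.5-fold 11.2% higher and 29.8% lower. All members but FGB were of that kind. The members' median log2 ratio of FPKM + 1 was 0.21, and 0.23 without FGB, against a median of 0.00 over all measured genes and -0.25 over those without shared reads. Within a bulk library, fewer cells transcribing a gene and less RNA per cell cannot be told apart.

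The differences were small: 7 of 8 measured members were higher by any amount in FZD2 shRNA cells and C1S was lower. The share of all measured genes higher by any amount was not counted. Their median log2 ratio was 0.00, or -0.25 without shared reads. C1S was at 0.09 in TPM (FPKM rescaled to an equal sum) and 0.35 with the GC trend removed, and APOE at -0.04 with that trend removed. The expected count of FGG was 1765 in FZD2 shRNA cells and 1480 in control shRNA cells, which gave 0.29 as the log2 ratio of counts per library total, with a 95% counting interval of 0.19 to 0.39. C3 had 1588 reads with the FZD2 shRNA and 1329 reads with the control (0.29, interval 0.19 to 0.40). The intervals are exact binomial and cover counting error only, not the difference between cultures. APOE had 501 reads with the FZD2 shRNA and 422 reads with the control (0.28, interval 0.09 to 0.47). FGB had expected counts of 3075.89 with the FZD2 shRNA and 2843.41 with the control (0.15, interval 0.07 to 0.22). In these 4 the interval excluded equal counts, in the direction of the FZD2 shRNA library. Of all measured genes 35.5% had such an interval above equality and 36.8% below it. Among genes without shared reads 19.4% lay above and 48.1% below, where 3 of the 7 such members lay above and 0 below.

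The intervals of the other measured members held equality. FGA had 270 reads with the FZD2 shRNA and 244 reads with the control (0.18, interval -0.07 to 0.44), so its point estimate lay between those of FGB and FGG. C1R had 86 reads with the FZD2 shRNA and 77 reads with the control (0.19, interval -0.27 to 0.66). C1S had 61 reads with the FZD2 shRNA and 68 reads with the control (-0.12, interval -0.64 to 0.40). C1R and C1S thus leaned to opposite sides within wide intervals that overlap. CFB had 22 reads with the FZD2 shRNA and 16 reads with the control (0.49, interval -0.50 to 1.52), and its interval, like that of SERPINA1 (-1.33 to 0.74), reached past 2-fold, so differences of these genes below that size were not detectable at this depth.

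FPKM and expected counts gave the same order of the libraries for all 8 measured members. They differed where the authors' gene length, which is given per library, was not the same in both. For FGB the length was 3510.1 bases in FZD2 shRNA cells and 3627.97 bases in control shRNA cells, and the log2 ratio was 0.20 in FPKM without a pseudocount and 0.15 in counts. For C1S it was 2648 bases with the FZD2 shRNA and 2761.36 bases with the control, and the log2 ratio was -0.06 in FPKM without a pseudocount and -0.12 in counts. The length of C3 was 5148 bases in both libraries, and its log2 ratio was 0.30 in FPKM without a pseudocount and 0.29 in counts.

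**Figure D2:**
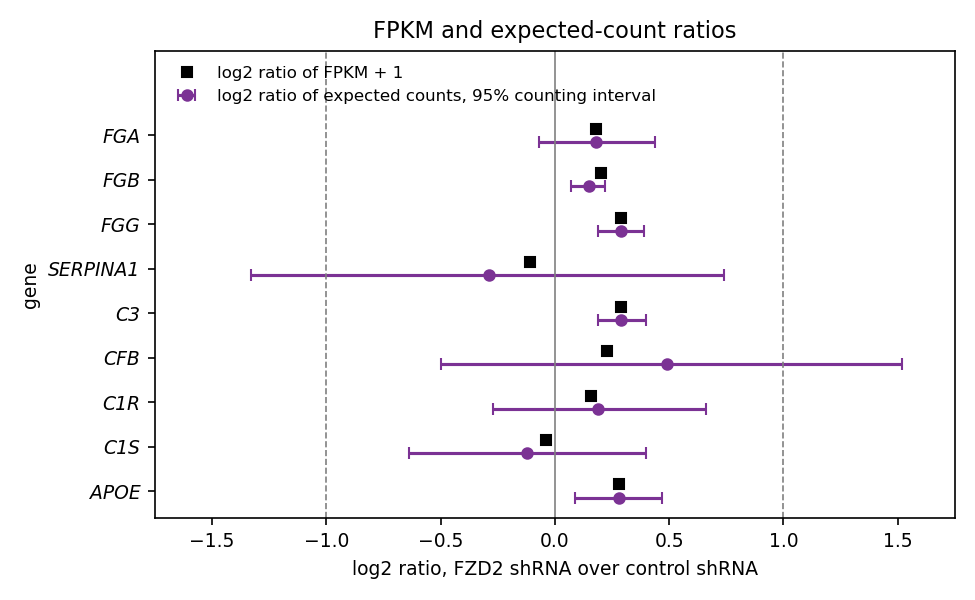
Log2 ratio of FZD2 shRNA over control shRNA for 9 of the 10 genes (ALB, with 1 read, is left out): squares are FPKM + 1, circles are expected counts per library total with the 95% counting interval as bars, and dashed lines mark 2-fold. All squares lie between -0.11 and 0.29, and the bars of FGB, FGG, C3 and APOE lie above 0.

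Ratios in these libraries moved with the base composition of transcripts. Among measured genes without shared reads the median log2 ratio of FPKM + 1 was -0.54 in the tenth of genes poorest in GC and 0.23 in the tenth richest in GC. The fibrinogen transcripts lay at the low end, at 40.6% GC for FGG, 41.4% for FGB and 45.3% for FGA, where the fitted trend was -0.52, -0.51 and -0.49. APOE lay at the high end, at 68.6% GC and a trend of 0.32, and C3 at 56.5% and -0.11. With this trend removed, the log2 ratio was 0.81 for FGG, 0.71 for FGB, 0.66 for FGA, 0.40 for C3 and -0.04 for APOE. The 3 fibrinogen genes thus moved farther from 0, past 1.5-fold but short of 2-fold, and APOE moved to the other side of it. The share of all measured genes past 1.5-fold with the trend removed was not counted. Removing the trend also moved the median of all measured genes, from -0.004 to 0.227, so 0 is not the centre of the values with the trend removed. C1R had no GC value. The part of GC content in these ratios was not tested.

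**Figure D3:**
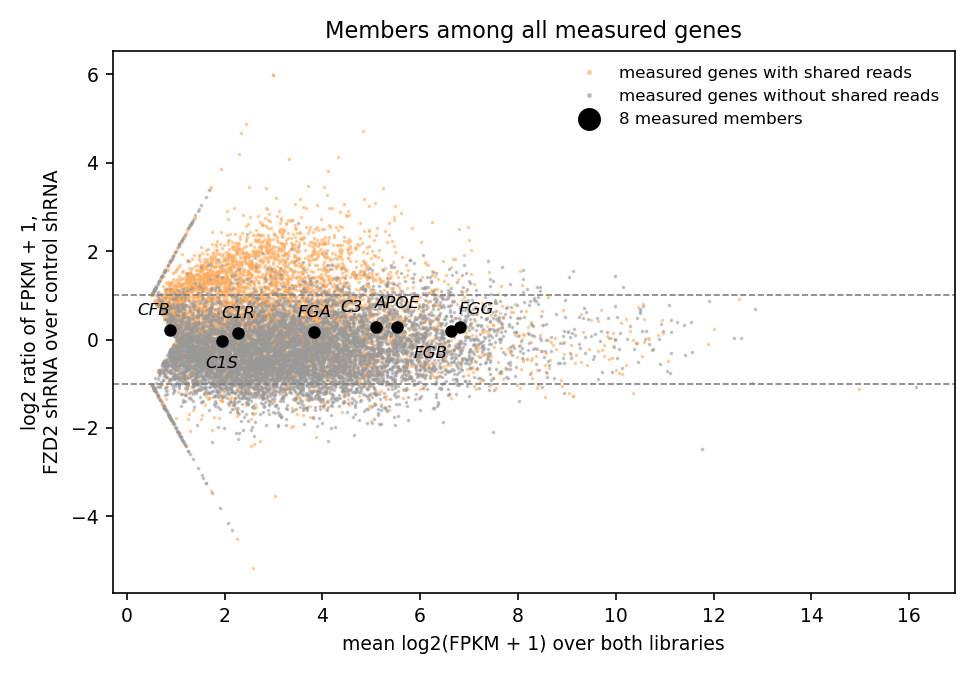
Log2 ratio of FPKM + 1 (FZD2 shRNA over control shRNA) against the mean log2(FPKM + 1) of the 2 libraries for 14377 measured genes, orange with shared reads and grey without, with the 8 measured members in black and dashed lines at 2-fold. The members lie between -0.04 and 0.29 at low, middle and high levels.

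The genes beside the members were at levels of their own. AFP, the alpha-fetoprotein gene next to ALB, was at 0.24 FPKM in FZD2 shRNA cells and 0.17 FPKM in control shRNA cells, while ANKRD17 on the other side was at 31.47 against 14.43 FPKM (log2 ratio 1.07). The fibrinogen genes are flanked by PLRG1, a splicing factor gene, at 12.25 FPKM with the FZD2 shRNA and 16.79 FPKM with the control, and by LRAT, a retinol esterification gene with shared reads, at 2.96 against 1.32 FPKM. APOC1, an apolipoprotein gene next to APOE, was at 6.65 FPKM with the FZD2 shRNA and 6.26 FPKM with the control, from 31.36 and 29.84 expected counts that were partly shared. TNFSF14, next to C3, was at 6.61 FPKM with the FZD2 shRNA and 1.56 FPKM with the control (log2 ratio 1.57), with shared reads. In the antitrypsin cluster on chromosome 14, SERPINA3, which encodes antichymotrypsin, was at 92.37 FPKM in FZD2 shRNA cells and 94.52 FPKM in control shRNA cells. SERPINA1 in the same cluster was 154 times lower than SERPINA3 in FPKM with the FZD2 shRNA and 129 times lower with the control.

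Beyond the 10 members, 108 further genes of liver-secreted proteins and of proteins that act with them were examined in 4 lists. Among these were genes of proteins that are not plasma proteins, the membrane regulators CD46, CD55 and CD59 and the intracellular MTTP. Of the 108, 35 were measured and 42 were unlisted in both libraries. Of the 35, 4 were higher by 2-fold or more in FZD2 shRNA cells and 2 at least 2-fold lower, where the shares over all measured genes were 15.2% and 7.41%. Among the 20 without shared reads 1 was higher and 1 lower, with a median log2 ratio of -0.03, against 0.43 over the 35.

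Clotting factors other than fibrinogen were sparse. Of 22 clotting and fibrinolysis genes 5 were measured and none of the 5 differed by 2-fold, where 22.6% of all measured genes did. F2, the prothrombin gene, was at 0.12 FPKM in FZD2 shRNA cells and 0.06 FPKM in control shRNA cells, and F7, F9 and F11 were unlisted in both. PROS1, which encodes the anticoagulant protein S, was the highest of the list, at 8.96 FPKM with the FZD2 shRNA and 16.63 FPKM with the control (log2 ratio -0.82, or -0.31 with the GC trend taken out). F5, the factor V gene, was at 3.69 against 1.67 FPKM (0.81), and KNG1, the kininogen gene, at 1.94 against 0.56 FPKM (0.91), both with shared reads. Once the GC trend, which was fitted to genes without shared reads, was removed both passed 2-fold, F5 at 1.30 and KNG1 at 1.41. How many of all measured genes passed 2-fold with that trend removed was not counted. SERPINA5, a protein C inhibitor gene, was at 1.44 FPKM with the FZD2 shRNA and 1.5 FPKM with the control.

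Complement was present in parts. Of 32 complement components and regulators 13 were measured, 2 of them higher by 2-fold or more in FZD2 shRNA cells and 2 at least 2-fold lower. The shares over all measured genes were 15.2% and 7.41%. Among the 7 of the list without shared reads 0 were higher and 1 lower, where the shares over all such genes were 4.19% and 10.2%. The partners that C1R and C1S need were at or near absence, since the C1q chain genes C1QA, C1QB and C1QC were unlisted in both libraries, and C4A was unlisted with the FZD2 shRNA and at 0.07 FPKM with the control. C4A and C4B are near-identical copies, and C4B was unlisted in both. C2, the classical pathway counterpart of factor B and close to CFB on chromosome 6, was at 9.07 FPKM with the FZD2 shRNA and 1.6 FPKM with the control (log2 ratio 1.95), and CFD, the protease that cleaves factor B, at 12.84 against 4.69 FPKM (1.28). Reads of both were partly shared, which leaves these values uncertain, and CFD stood at 0.96 once the GC trend was removed. C5 was at 4.03 against 2.41 FPKM and C7 at 1.71 against 0.39 FPKM, also with shared reads, while the terminal components C8A, C8B and C9 were unlisted in both.

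The regulators that protect cells from complement differed among themselves. CD55, which speeds the decay of C3 convertases, was at 19.69 FPKM in FZD2 shRNA cells and 43.74 FPKM in control shRNA cells (log2 ratio -1.11, shared reads). CD46, a cofactor for C3b cleavage, was at 9.45 against 19.83 FPKM, just short of 2-fold. CD59, which blocks the membrane attack complex, was at 44.32 FPKM with the FZD2 shRNA and 43.0 FPKM with the control. The soluble inhibitor C4BPA was at 0.75 against 3.65 FPKM (-1.41), from 14 and 70 reads. With the GC trend taken out CD55 was at -0.61, CD46 at -0.47 and C4BPA at -0.90. CLU, which encodes clusterin, an inhibitor of the terminal complex, was the most abundant gene of the list, at 198.57 FPKM with the FZD2 shRNA and 147.55 FPKM with the control (0.43, or 0.67 with that trend taken out).

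Of 32 acute phase and transport protein genes 8 were measured. SERPINA3 (log2 ratio -0.03) was the most abundant, and CP, which encodes the copper protein ceruloplasmin, was at 32.54 FPKM in FZD2 shRNA cells and 22.57 FPKM in control shRNA cells (0.51, or 1.03 with the GC trend taken out). LRG1, a secreted glycoprotein gene of the acute phase, was the 1 gene past 2-fold, at 14.32 FPKM with the FZD2 shRNA and 1.97 FPKM with the control (2.37), with shared reads. Over all measured genes 15.2% were at least 2-fold higher and 7.41% at least 2-fold lower. SAA1, a serum amyloid gene with a near-identical copy, was at 6.49 against 4.13 FPKM. CRP, HP, ORM1, ORM2, TTR and AHSG, strongly transcribed in liver, were unlisted in both libraries.

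Of 22 apolipoprotein and lipoprotein enzyme genes 9 were measured. PLTP, the phospholipid transfer protein gene, was at 95.46 FPKM in FZD2 shRNA cells and 45.34 FPKM in control shRNA cells (log2 ratio 1.06, from 1357 and 662 reads) and was the 1 liver-secreted gene without shared reads that was 2-fold higher. Over all measured genes without shared reads 4.19% were at least 2-fold higher. With a pseudocount of 5 FPKM PLTP lay just short of 2-fold (1.00). ANGPTL4, a lipoprotein lipase inhibitor gene, was at 14.36 FPKM with the FZD2 shRNA and 11.46 FPKM with the control (0.30), and LIPC, hepatic lipase, at 5.05 against 6.75 FPKM (-0.36). With the GC trend taken out ANGPTL4 was at 0.16, and LIPC crossed 0 to 0.14. APOA2, APOB, APOC3 and APOH were unlisted in both, so APOE was transcribed where most other liver apolipoproteins were at or near absence.

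**Figure D4:**
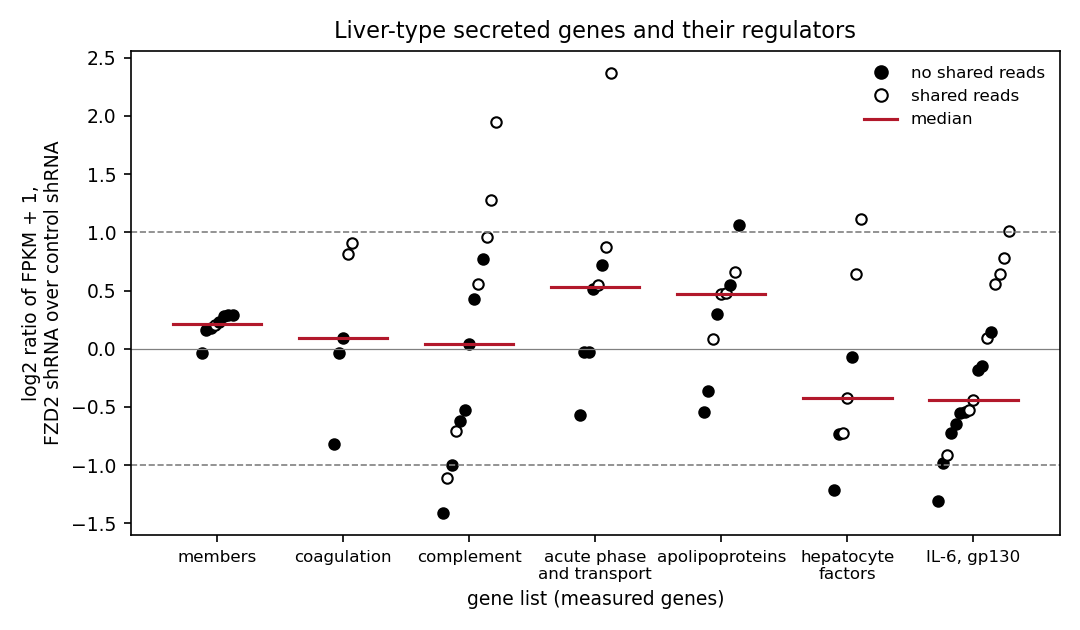
Log2 ratio of FPKM + 1 (FZD2 shRNA over control shRNA) of every measured gene in 7 lists, filled without shared reads and open with them, with the list's median as a red line and dashed lines at 2-fold. The members lie between -0.04 and 0.29, while the complement list runs from -1.41 to 1.95, and 3 of the 4 liver-secreted genes past 2-fold higher are open.

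The transcription factors that drive these genes in hepatocytes were partly present. Of 18 factor genes 7 were measured, 1 higher by 2-fold or more in FZD2 shRNA cells and 1 at least 2-fold lower, where the shares over all measured genes were 15.2% and 7.41%. The list's median log2 ratio was -0.42, against 0.00 over all measured genes and -0.25 over those without shared reads. HNF4A was unlisted with the FZD2 shRNA and at 0.03 FPKM with the control. NR5A2, a nuclear receptor of bile acid synthesis, was at 3.42 FPKM with the FZD2 shRNA and 6.26 FPKM with the control (-0.72, or -0.20 with the GC trend taken out, shared reads).

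The C/EBP factors and FOXA2 were at higher levels. CEBPB was at 36.19 FPKM in FZD2 shRNA cells and 48.88 FPKM in control shRNA cells (log2 ratio -0.42), and CEBPD at 50.46 against 32.07 FPKM (0.64), both with shared reads, while CEBPA, the main form of resting liver, was at 0.32 against 0.54 FPKM. FOXA2 was at 11.75 FPKM with the FZD2 shRNA and 12.37 FPKM with the control, and FOXA1 at 0.6 against 2.69 FPKM (-1.21, or -0.90 with the GC trend taken out). PPARA, a nuclear receptor for fatty acids, was at 6.21 against 2.34 FPKM (1.11) with shared reads. Once the GC trend was removed CEBPB was at -0.65 and CEBPD at 0.26.

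**Figure D5:**
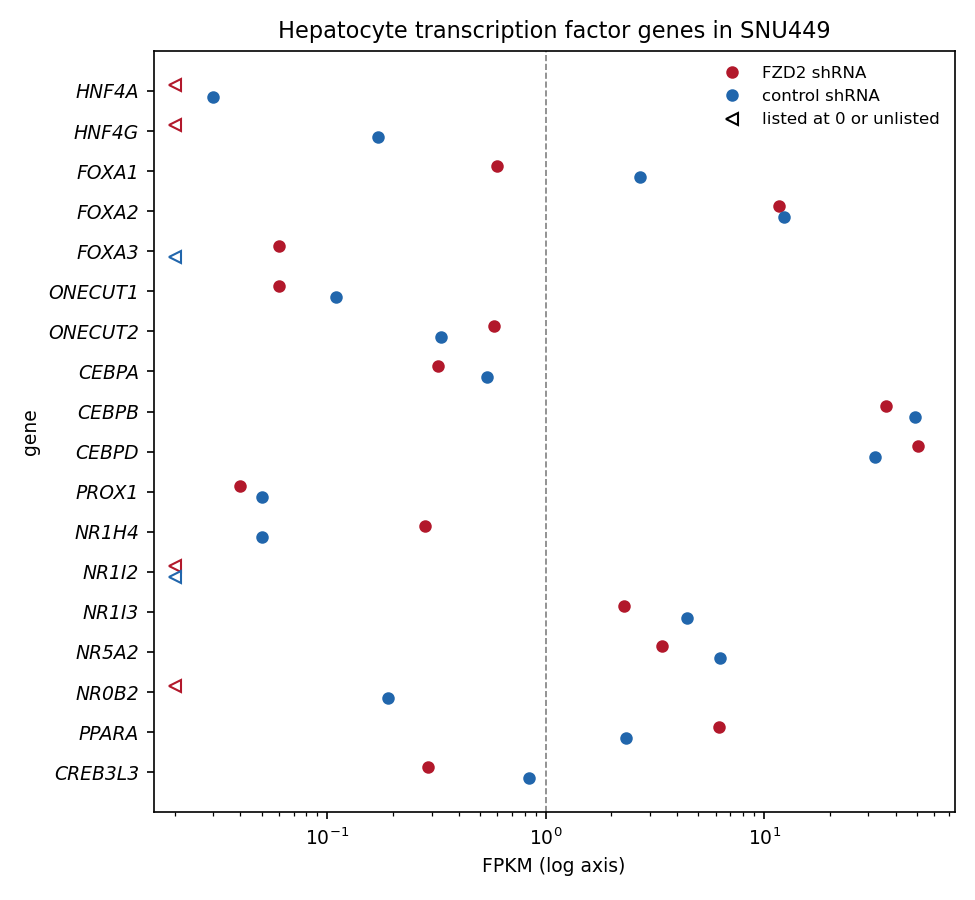
FPKM (log axis) of 18 hepatocyte transcription factor genes, 1 point per library, with the FZD2 shRNA library (red) above the control library (blue) in each row; the dashed line is 1 FPKM and open triangles are unlisted genes. FOXA2, CEBPB and CEBPD stand above 10 FPKM in both libraries, whereas HNF4A is at 0.03 FPKM or unlisted.

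A list of 19 genes held those of IL-6 and gp130 signalling together with the interleukin-1 genes IL1B, IL1R1 and IL1RAP. Of the 19, 17 were measured, 1 (IL6R) higher by 2-fold or more in FZD2 shRNA cells and 1 (IL1RAP) at least 2-fold lower. The shares over all measured genes were 15.2% and 7.41%. The list's median log2 ratio was -0.44, against 0.00 over all measured genes and -0.25 over those without shared reads. IL6 itself was transcribed, at 7.69 FPKM with the FZD2 shRNA and 13.27 FPKM with the control (-0.72), and LIF, another cytokine that signals through gp130, at 15.2 against 30.89 FPKM (-0.98). The receptor chain IL6R was at 19.65 FPKM with the FZD2 shRNA and 9.28 FPKM with the control (1.01), and IL6ST, which encodes gp130, at 6.66 against 13.43 FPKM (-0.91), both with shared reads. JAK1, the kinase on gp130, was at 23.03 against 36.83 FPKM (-0.65). STAT3, the factor it activates, was at 55.8 against 35.53 FPKM (0.64, shared reads), and SOCS3, a feedback inhibitor and STAT3 target, at 17.17 against 25.68 FPKM (-0.55). IL1RAP, a chain of the interleukin-1 receptor, was at 1.47 against 5.11 FPKM (-1.31, or -0.79 with the GC trend taken out). With the GC trend taken out, IL6 was at -0.20, IL6ST at -0.39, JAK1 at -0.18 and STAT3 at 0.98. LIF (-0.95), SOCS3 (-0.57) and IL6R (1.08) stayed close to their values as reported. The genes of the list thus lay on both sides of 0, as reported and with the GC trend taken out. The 3 fibrinogen genes stood between 0.18 and 0.29 as reported, and between 0.66 and 0.81 with that trend taken out.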

How the data were processed

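Poly(A) RNA of 2 SNU449 libraries was sequenced on a BGISEQ, per the series design and the labels' protocols. Bowtie2, HISAT and the build hg19 appear, with no version or role, in the submitters' processing notes. No source used here names the counting program or says whether strand was used. Per the file headers, length, expected count and FPKM are given per gene. The authors' expected counts are read estimates with no normalization. The FPKM values deposited by the authors are scaled to length and library size. Genes unlisted in a library were set to 0.

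Totals were 8234592 expected counts over 18303 genes (FZD2 shRNA) and 8436870 over 18336 (control), of which 3 counts, the limit a count of 0 allows, are 3.64e-05% and 3.56e-05%. Gene symbols came from RefSeq (GRCh38.p14), by gene identifier, for 19229 of 19316 genes.

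Libraries were compared as the ratio of FPKM + 1, FZD2 shRNA over control, on a log2 scale, and a gene was called at 2-fold. Count ratios used rounded counts over library totals with exact conditional binomial 95% intervals, and reads copied in amplification are not independent. A gene had shared reads where a count was not whole to 0.001. GC content came from GENCODE release 29 transcripts matched by RefSeq accession (96.1% of measured genes), with a lowess trend (fraction 0.3) fitted to genes without shared reads. The size rule and intervals were tested on simulated counts.

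The members and lists were chosen with earlier results of these data known. Named genes were the members, the up to 4 highest by mean FPKM and the up to 4 largest log2 ratios past 2-fold in each list, markers at or near absence, and FZD2. IL6, IL6ST, C5, C7 and the neighbouring genes were named after their values were seen. Alternatives were pseudocounts of 0.1 and 5, TPM, a median of 0, CPM with and without TMM, limits of 1.5-fold and 4-fold, counting intervals, no filter and 5 FPKM. Some genes of the original lists are not reported here. Genes without shared reads and the GC trend were added after seeing the data. TMM factors came from edgeR 4.0.16 in R 4.3.3, intervals from SciPy 1.17.1, the trend from statsmodels 0.14.6, tables from pandas 2.3.3 with NumPy 2.4.6 and figures from matplotlib 3.10.9, in Python 3.11.15.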

Additional observations from a re-analysis of the deposited data

How the results depend on the processing

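No member was 2-fold higher or lower under any alternative of scale, pseudocount, scaling, filter or GC trend. None was past 1.5-fold on FPKM + 1 as reported, but FGG (0.81), FGB (0.71) and FGA (0.66) were with the GC trend taken out. How many of all measured genes passed 1.5-fold with that trend taken out was not counted. By counting interval alone, 4 members were higher and 0 lower. With no filter 10 members counted as measured, and at 5 FPKM 5. The members' median log2 ratio ran from 0.16 (pseudocount of 5) to 0.37 (TPM), and was 0.46 with the GC trend taken out. TPM moved the median of all measured genes to 0.138, and taking the GC trend out moved it to 0.227. Of the 4 liver-secreted lists together, the 4 higher genes became 12 with a pseudocount of 0.1, 2 with a pseudocount of 5, 9 in TPM, 8 in CPM with or without TMM, 9 with the GC trend taken out, 11 at 1.5-fold, 1 at 4-fold, 11 by counting interval and 1 without shared reads. The 2 lower genes became 5 with a pseudocount of 0.1, 0 with a pseudocount of 5, 1 in TPM, 4 in CPM with or without TMM, 0 with the GC trend taken out, 6 at 1.5-fold, 0 at 4-fold, 9 by counting interval, 1 at 5 FPKM and 1 without shared reads. Of all measured genes, 26.1% were higher and 21.7% lower at 1.5-fold, and 35.5% and 36.8% by counting interval. Without shared reads the shares at 2-fold were 4.19% and 10.2%. At the other settings the shares over all measured genes were not counted, so those counts cannot be set against all genes. The cause was not tested. Depth limits CFB, SERPINA1, C1R and C1S, with at most 86 reads in either library. No paired analysis was possible because each group has 1 library, and leaving out a library leaves no comparison.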

Other observations

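Hepatocyte enzymes and receptors gave a further picture of the liver program in this line. Of 32 such genes 10 were measured and 8 were unlisted in both libraries. The urea cycle genes were transcribed in part, with ASL at 17.53 FPKM in FZD2 shRNA cells and 9.51 FPKM in control shRNA cells (log2 ratio 0.82, shared reads), ASS1 at 6.2 against 5.45 FPKM (0.16, or 0.29 with the GC trend taken out) and CPS1 at 2.71 against 5.23 FPKM (-0.75, or -0.24 with that trend taken out, shared reads), whereas ARG1 was unlisted in both. CYP27A1, of bile acid synthesis, was at 9.15 FPKM with the FZD2 shRNA and 15.76 FPKM with the control (-0.72).

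Of the 10, 4 were higher by 2-fold or more in FZD2 shRNA cells and 0 lower, against 15.2% and 7.41% of all measured genes. They were CYP1A2 (5.63 against 0.91 FPKM, log2 ratio 1.80), TAT, of tyrosine breakdown (4.65 against 0.9 FPKM, 1.57), ADH4, an alcohol dehydrogenase gene (3.32 against 0.92 FPKM, 1.17), and CYP8B1, of bile acid synthesis (2.0 against 0.39 FPKM, 1.11). All 4 had shared reads, and of the 3 measured enzymes without shared reads 0 differed by 2-fold, where 14.4% of all such genes did.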
